A study of Drosophila melanogaster with 15 samples.

Results

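The genes described here are those whose levels differed most between replicate arrays of one genotype. RNA from whole fly heads had been hybridized to 15 arrays, 5 for each of 3 Drosophila genotypes. The elav/v105975 flies carried the elav-Gal4 driver, which is active in neurons, together with v105975, a UAS transgene for a hairpin RNA against Clic (chloride intracellular channel). The v105975/+ flies carried the hairpin transgene without the driver, and the elav/+ flies carried the driver without the hairpin transgene. Each transgene came from 1 strain, so strain background and transgene cannot be told apart. The age and sex of the flies and the hour at which heads were taken are not given in the sources used here, nor is it stated whether the 5 arrays came from separate crosses or collections, so the spread between arrays may be biological or technical.

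The genotype mean was subtracted from each probeset, a group of probes that together measure one transcript, and the standard deviation (SD) of the 15 residuals was taken with 12 degrees of freedom. Of 16322 probesets, 4880 carried 1 gene symbol and averaged at least 7 on the log2 intensity scale, and these were eligible. The 200 with the largest residual SD, 4.1% of the eligible ones, were taken as members, and they stood for 200 different genes. Their residual SD was thus the measure that chose them and is given without a test. At the edge of the set, CG1136 (0.2043) was the last member and Rpn11, a proteasome subunit (0.2040), was the first probeset left out, so no gap separated members from the rest.

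Several systems in the fly head are known to change their RNA levels from hour to hour or from animal to animal. The circadian clock is a loop in which the Clk and cyc proteins drive per and tim, whose products then repress Clk and cyc, and vri and Pdp1 in turn control Clk, so that in flies kept in light and dark the RNAs of per and tim peak when that of Clk is low. The fat body, which lines the head capsule, secretes antimicrobial peptides after infection and, in females, yolk proteins. The epidermis lays down cuticle, a layer of chitin and cuticle proteins, chiefly before and just after the adult emerges.

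Markers of the labelled tissue were present. The neuronal genes elav, nSyb and brp had log2 means of 9.04 to 10.6, and trp, a channel of photoreceptors, had one of 11.9. Markers of flight muscle, midgut, ovary, testis and male accessory gland did not exceed 5.96 in any array, and Yp1, Yp2 and Yp3, yolk proteins made by the female fat body, lay between 11.7 and 13.2 in every array. The array medians lay between 6.16 and 6.24, and each array had a mean correlation of 0.993 to 0.995 with the others of its genotype. Such a correlation of levels rests mostly on differences between genes, so it cannot tell whether single arrays stood apart. In both hairpin genotypes its lowest values were those of arrays 4 and 5. Clic, the target of the hairpin, lay between 8.28 and 8.50 in elav/v105975, between 8.85 and 9.05 in v105975/+ and between 9.09 and 9.23 in elav/+. Its residual SD of 0.0752 ranked 3203 among the eligible probesets and that of elav, 0.0437, ranked 4706, so neither gene was among the members.

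Members had a median residual SD of 0.262 (0.204 to 1.23), against 0.0881 over the eligible probesets. Among them 19 reached 0.5 and 7 reached 1, a spread at which 1 SD was a 2-fold difference. These 7 were Vajk3, CG13043, Ccp84Ab, Vajk2, CG5172, CG7214 and Mtk. Of the members, 60 had their largest SD in elav/v105975, 81 in v105975/+ and 59 in elav/+. These were 30.0%, 40.5% and 29.5% of the 200, near the 29.8%, 36.6% and 33.6% of the eligible probesets. A single member could still spread mainly in 1 genotype, as per did, with SDs of 0.105, 0.0615 and 0.553 in the same order. When the 200 were chosen on 2 genotypes alone, their median SD in the genotype left out was 0.227 in elav/v105975, 0.244 in v105975/+ and 0.208 in elav/+, where the eligible probesets had medians of 0.0806, 0.0855 and 0.0823. Of the probesets so chosen, 95.0% to 96.0% had an SD in the genotype left out that was above the eligible median there, and 163 to 169 were among the 200 members.

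**Figure D1:**
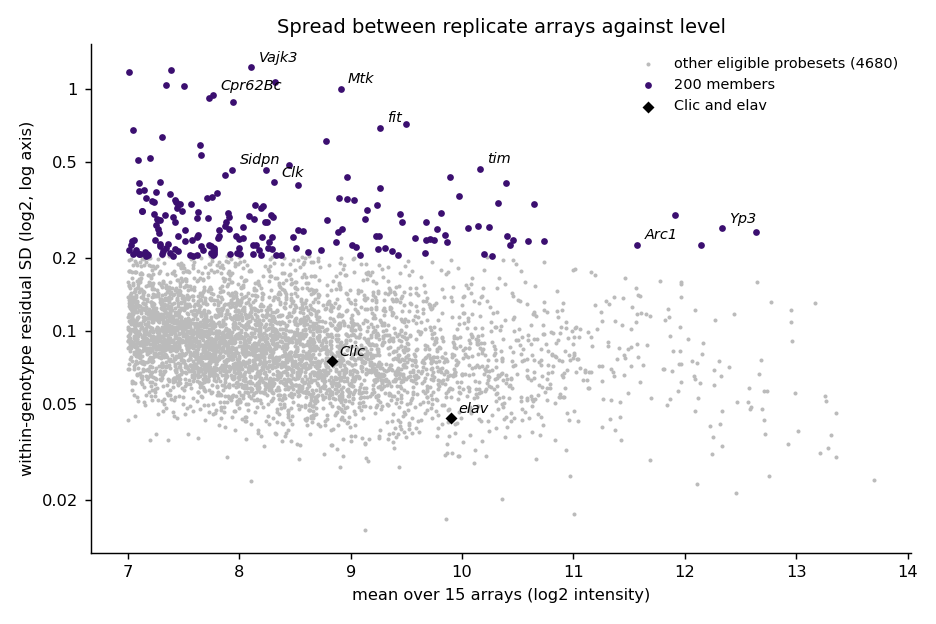
Each point is an eligible probeset, with its mean log2 intensity over 15 arrays across and its within-genotype residual SD (log2, log axis) up, dark for the 200 members, grey for the other 4680 and black diamonds for Clic and elav. Members were found at every level from 7 to above 12, with Vajk3 at the top (SD 1.23).

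The members did not vary independently of each other. The first principal component of their residuals held 68.4% of the variance, against 18.2% over all 16322 probesets, and the second held 12.2%. The residuals were not scaled and the members were chosen for large ones. The members of widest spread therefore weigh most, and the higher share is partly built in by the choice. A tree of the members by Pearson correlation of residuals, cut at 0.6, placed 174 in 8 clusters of at least 5 and left 26 outside. The 2 largest clusters held 126 members, 64 led by Vajk3 and 62 led by Mtk. Cluster 3 (13 members) held the clock genes Clk and cry, cluster 4 (8 members) held tim, per and vri, and the means of these clusters ran against each other with r = -0.888 over 15 arrays. The residuals of a genotype sum to 0, so these 15 values carry 12 degrees of freedom, and each correlation below is a description of these arrays.

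**Figure D2:**
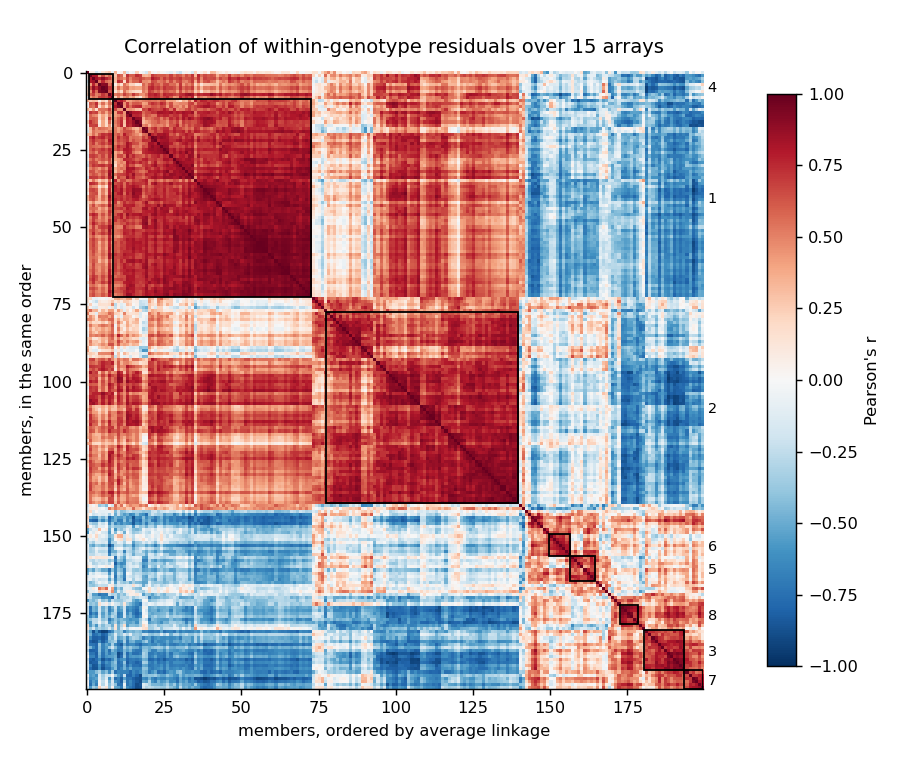
Pearson's r between the within-genotype residuals of every pair of the 200 members over 15 arrays, with members in the order of the tree on both axes, red for positive and blue for negative, and boxes around the 8 clusters with their numbers at the right. Clusters 1 (64 members) and 2 (62 members) form the large red blocks, cluster 4 is red against both, and clusters 3, 7 and 8 are blue against them.

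Cluster 1 was led by genes of the cuticle. Vajk3, of a family of small secreted proteins of the epidermis, had log2 values of 8.74, 8.35, 7.45, 9.35 and 9.23 in elav/v105975, 7.08, 6.61, 6.12, 9.87 and 9.47 in v105975/+, and 9.32, 6.76, 7.60, 7.35 and 8.32 in elav/+ (log2, arrays 1 to 5). Arrays 4 and 5 of elav/v105975, arrays 4 and 5 of v105975/+ and array 1 of elav/+ were the high ones, and the range within v105975/+ was 13.5-fold, against 3.74-fold in elav/v105975 and 5.89-fold in elav/+. Ccp84Ab, a chitin-binding cuticle protein, measured 7.67, 7.34, 6.29, 8.28 and 8.12 in elav/v105975, 5.48, 6.02, 5.14, 8.31 and 8.21 in v105975/+, and 8.32, 5.72, 6.05, 6.55 and 7.59 in elav/+ (log2, arrays 1 to 5). Its high arrays were those of Vajk3, and the 3 genotypes overlapped.

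The resemblance extended over much of the group, though not evenly. In cluster 1 the pairwise r had a median of 0.811 and a lowest value of 0.18. Over 15 arrays the residuals of Vajk3 had r = 0.993 with Vajk2, 0.986 with Cpr62Bc and 0.984 with CG8736, which were the 3 highest values among the eligible probesets, and the r with Vajk2 was between 0.987 and 0.997 within each genotype of 5 arrays. Of the 13 eligible genes in a list of cuticle proteins, 8 were members (Ccp84Ab, Cpr62Bc, Cpr100A, Cpr97Eb, Cpr72Ec, Cpr49Ae, Cpr62Bb and Cpr11B), 61.5% of the list against 4.1% of all eligible probesets. Cpr72Ec was the exception among them and fell in cluster 3. The 13 eligible cuticle genes had a median pairwise r of 0.512. All 3 eligible Vajk genes and 4 of 5 eligible genes for other chitin-binding or chitin-modifying proteins were members, in lists drawn up after the values were seen.

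The chitin-modifying enzymes spread less than the leading cuticle proteins, with residual SDs of 0.442 for verm and 0.431 for serp, against 1.17 for Ccp84Ab. The chitin deacetylase verm had 8.14, 7.84, 7.84, 8.50 and 8.28 in elav/v105975, 7.65, 7.57, 7.19, 8.35 and 8.42 in v105975/+, and 8.39, 7.24, 7.40, 7.40 and 7.84 in elav/+ (log2, arrays 1 to 5). Its neighbour in the genome, serp, which encodes a second chitin deacetylase, correlated with it at r = 0.957. Both were high in the same arrays as Vajk3. Gasp, a chitin-binding protein, ranged in elav/+ from 9.79 to 10.57, and the array at 10.57 was again array 1.

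Cluster 1 also held genes of other roles. Prosalpha4, a subunit of the core particle of the proteasome, which degrades proteins, had log2 values of 7.99, 7.82, 7.78, 8.22 and 7.94 in elav/v105975, 7.29, 7.78, 7.58, 8.03 and 8.19 in v105975/+, and 8.04, 7.56, 7.73, 7.83 and 8.20 in elav/+ (log2, arrays 1 to 5). Array 1 of v105975/+ was the lowest of all and array 4 of elav/v105975 the highest. Of 23 eligible proteasome genes (a list drawn up after the values were seen), 5 were members (Prosalpha4, Prosbeta4, Rpt3, Rpn6 and Rpt5), and Rpn11 and Prosbeta6 lay just outside. The 23 moved together, with a median pairwise r of 0.796, and ranked between 90 and 1421 of 4880. The r between Vajk3 and Prosalpha4 was 0.779.

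Ilp5, an insulin-like peptide made by a few neurosecretory cells of the brain, measured 7.95, 8.07, 7.72, 8.45 and 8.42 in elav/v105975, 7.78, 7.72, 7.80, 8.45 and 8.47 in v105975/+, and 7.80, 7.27, 7.40, 7.59 and 7.55 in elav/+ (log2, arrays 1 to 5). In both genotypes with the hairpin transgene, arrays 4 and 5 lay above the other 3 without overlap, while array 1 was the highest in elav/+. Its residuals followed those of Vajk3 with r = 0.91. Sting, an innate immune receptor for cyclic dinucleotides, was in this cluster too and is taken up with the genotypes below.

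**Figure D3:**
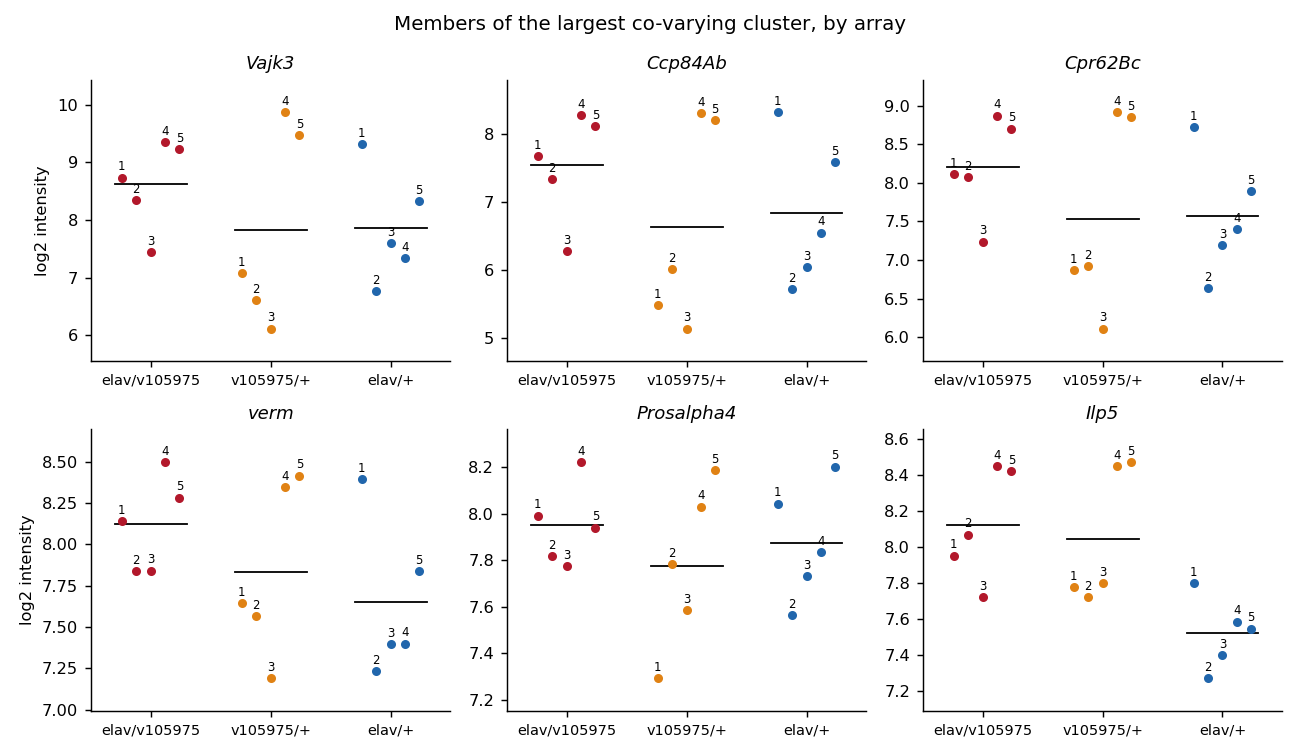
Log2 intensity of 6 members of cluster 1 in each array, by genotype, with the array number above each point and a bar at the genotype mean. Arrays 4 and 5 of elav/v105975 and v105975/+ and arrays 1 and 5 of elav/+ lay high for Vajk3, Ccp84Ab, Cpr62Bc and verm, and Prosalpha4 and Ilp5 showed smaller ranges.

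Many members of cluster 1 were high in the same arrays. Arrays 4 and 5 both lay above the other 3 for 47 of its 64 members in elav/v105975 and for 63 in v105975/+, and arrays 1 and 5 did so for 54 in elav/+. For 38 members, 59.4% of the cluster, all of these held at once, against 2.99% of the eligible probesets. These arrays were picked out after the values were seen. Numbers 4 and 5 were common to both hairpin genotypes, and no label says what a number stands for. Over the 200 members the residuals of same-numbered arrays correlated between 0.169 and 0.78 for elav/v105975 with v105975/+, and between -0.472 and 0.671 for either with elav/+, whereas over all probesets the 15 values lay between -0.076 and 0.176. The quantity is part of what placed the genes in one cluster and is no independent result. Array weights, which limma estimates from how far an array departs from the fit over all probesets, were 0.724 and 0.692 for arrays 4 and 5 of elav/v105975 and 0.776 and 0.763 for those of v105975/+, while arrays 1 and 5 of elav/+ had 0.891 and 1.02.

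The fat body markers moved in part with this cluster. Lsp2, a larval storage protein that the adult fat body also makes, had 5.92, 6.93, 5.39, 7.96 and 8.002 in elav/v105975, 5.27, 4.70, 4.54, 7.72 and 7.24 in v105975/+, and 9.03, 5.17, 6.58, 6.31 and 6.91 in elav/+ (log2, arrays 1 to 5). It averaged 6.51, below the level required of members, and had a residual SD of 1.36, above that of Vajk3, with which it correlated at r = 0.93. The other 2 fat body markers varied less, apolpp (an apolipoprotein) lying between 11.59 and 12.23 and FASN1 (fatty acid synthase) between 10.79 and 11.31. Their r with the mean of cluster 1 was 0.247 and 0.646, and with the mean of cluster 2 it was 0.844 and 0.658. The summed level of these 3 markers ranged from 12.31 to 12.80 in elav/v105975, from 12.34 to 12.66 in v105975/+ and from 12.68 to 12.76 in elav/+, and their part in the clusters was not tested. The sum was taken over unlogged intensities, so it rests mostly on apolpp and FASN1, and Lsp2 adds little to it. In RNA of whole heads, fewer cells of a type and less RNA per cell cannot be told apart.

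Cluster 2 was led by genes of the humoral immune response, but its 62 members were not of one pattern. Their pairwise r had a median of 0.775 and a lowest value of 0.0131. With the tree cut at 0.8, Mtk, Spn88Eb, PGRP-SB1 and Vago fell in a group of 7, BomS5 in one of 25 and fit in one of 11. Mtk, the antifungal peptide metchnikowin, had the widest range, 7.95, 6.29, 7.84, 9.47 and 8.90 in elav/v105975, 7.13, 8.52, 7.72, 9.29 and 10.0003 in v105975/+, and 10.42, 9.77, 10.19, 9.57 and 10.61 in elav/+ (log2, arrays 1 to 5). Array 2 of elav/v105975 was the lowest and array 5 of elav/+ the highest, and the range was 9.05-fold within elav/v105975 and 7.32-fold within v105975/+, against 2.06-fold within elav/+. Spn88Eb, a secreted serine protease inhibitor, followed it at lower level with 6.81, 5.84, 6.80, 7.77 and 7.78 in elav/v105975, 6.06, 6.99, 6.61, 7.49 and 7.88 in v105975/+, and 8.05, 7.84, 7.76, 7.75 and 8.21 in elav/+ (log2, arrays 1 to 5). The residuals of both genes correlated at r = 0.978, and within elav/v105975, v105975/+ and elav/+ the r was 0.982, 0.995 and 0.833 with 5 arrays each.

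PGRP-SB1, a secreted enzyme that cleaves bacterial peptidoglycan, and Vago, a secreted antiviral protein, had r = 0.914 and 0.939 with Mtk. Vago measured 7.94, 7.46, 7.90, 8.47 and 8.58 in elav/v105975, 7.29, 8.04, 7.90, 8.17 and 8.71 in v105975/+, and 9.62, 9.36, 9.46, 9.43 and 9.53 in elav/+ (log2, arrays 1 to 5). The 5 elav/+ arrays lay close together and above all 10 others, while its r with Mtk was 0.958 within elav/v105975 and 0.95 within v105975/+. Of 10 eligible genes in a list of antimicrobial and immune-induced peptides, 6 were members (Mtk, Dso2, BomS5, BomT2, Drsl5 and BomS6), 60.0% against the 4.1% of all eligible probesets.

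The Bom genes encode Bomanins, short secreted peptides that the Toll pathway induces. BomS5 had 8.49, 8.48, 8.71, 9.10 and 9.14 in elav/v105975, 9.04, 9.68, 9.44, 9.53 and 9.84 in v105975/+, and 9.99, 9.67, 9.95, 10.15 and 10.46 in elav/+ (log2, arrays 1 to 5). Its lowest arrays were 1 and 2 of elav/v105975, and no elav/v105975 array reached the lowest elav/+ array. BomBc2, BomT2, BomS5 and BomS6 follow each other on chromosome arm 2R, each within 3 gene places of the next, and had a median pairwise r of 0.854. Whether probes of related neighbours such as the Bom, Vajk, inaF and Ugt35 genes also bind each other's transcripts was not tested, and the r between such genes is given with that limit. Drsl5, a relative of the antifungal peptide drosomycin, was a member outside the clusters and had r = -0.149 with Mtk, so the peptides were not all of one pattern.

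Of 24 eligible genes for pathogen recognition, clotting and melanization, 5 were members: Spn88Eb, PGRP-SB1, PPO1, fon and PPO2. Neither PPO1 nor PPO2, prophenoloxidases of the blood cells called crystal cells, fell in a cluster of 5, and they correlated with each other at r = 0.807. PPO1 had 8.24, 7.94, 8.18, 8.06 and 8.24 in elav/v105975, 8.71, 8.82, 8.996, 8.39 and 8.14 in v105975/+, and 7.51, 7.87, 8.24, 8.24 and 8.20 in elav/+ (log2, arrays 1 to 5). Array 1 of elav/+ was its lowest, the array in which Vajk3 was highest within that genotype.

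Genes of the female fat body lay in both large clusters. In cluster 2, fit, a peptide secreted by the fat body chiefly in females, had log2 values of 8.50, 8.80, 8.61, 10.11 and 10.44 in elav/v105975, 7.90, 8.05, 8.45, 9.10 and 9.62 in v105975/+, and 10.11, 9.54, 9.71, 9.81 and 10.17 in elav/+ (log2, arrays 1 to 5). Arrays 4 and 5 were separate from the other 3 in both hairpin genotypes, and array 1 of elav/+ was close to array 5. Yp3, a yolk protein that belonged to cluster 1, measured 11.80, 11.93, 11.72, 12.38 and 12.69 in elav/v105975, 11.996, 12.09, 12.20, 12.35 and 12.34 in v105975/+, and 12.87, 12.59, 12.67, 12.60 and 12.75 in elav/+ (log2, arrays 1 to 5). Its residuals had r = 0.917 with those of fit, and Yp2 had 0.868. Yp3 had r = 0.658 with the mean of cluster 1 and 0.754 with the mean of cluster 2, so its place in cluster 1 was not a sharp one. The means of both clusters correlated with each other at r = 0.63.

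Of 4 eligible genes in the female fat body list, fit, Yp3 and Yp2 were members and Yp1 was not (rank 1028). The count depended on 1 array: chosen without array 5 of elav/v105975, the 200 held 1 of the 4 genes. The summed level of Yp1, Yp2 and Yp3 lay between 13.80 and 14.54 in elav/v105975, between 13.99 and 14.29 in v105975/+ and between 14.46 and 14.69 in elav/+.

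**Figure D4:**
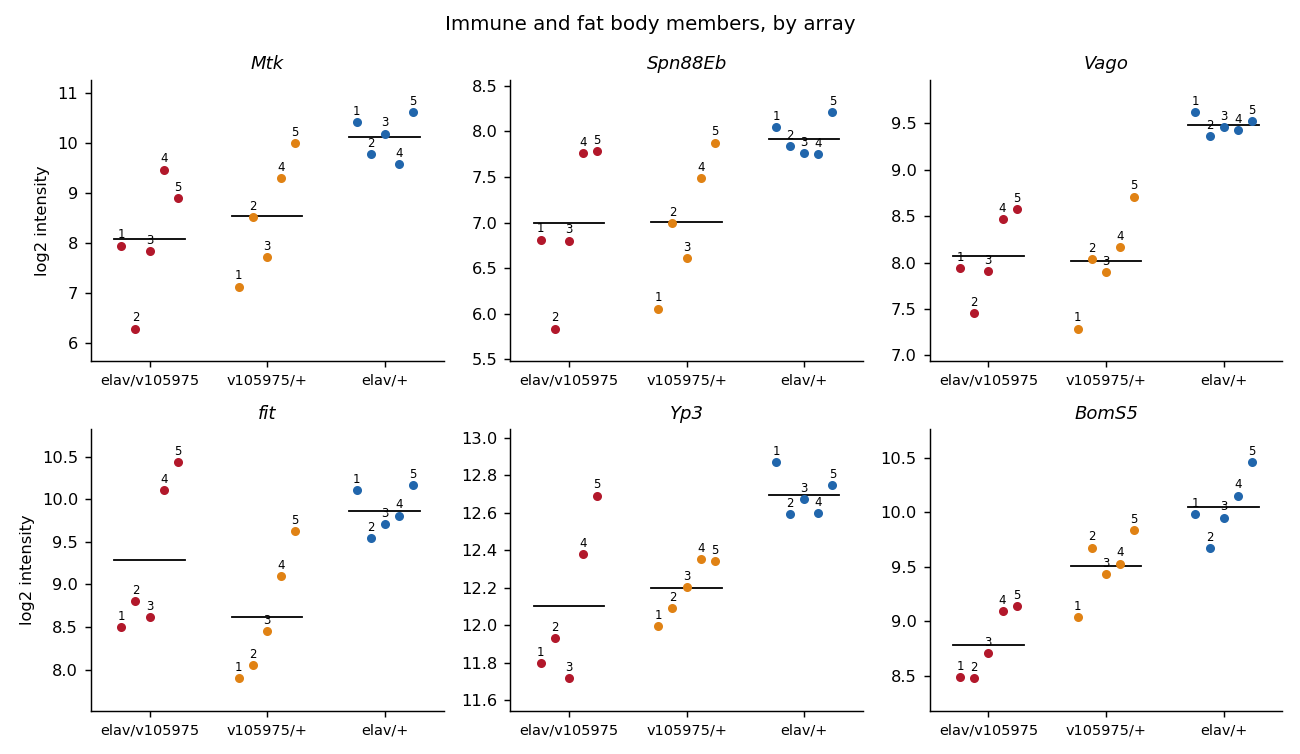
Log2 intensity of 4 immune members (Mtk, Spn88Eb, Vago and BomS5) and 2 members from the female fat body list (fit and Yp3) in each array, by genotype, with the array number above each point and a bar at the genotype mean. Mtk spans 6.29 to 9.47 in elav/v105975 and 9.57 to 10.61 in elav/+, and the elav/+ arrays of Vago lie above all others.

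The clock genes fell into both opposed clusters. Of 8 eligible clock genes, 5 were members (tim, Clk, per, vri and cry), 62.5% against 4.1%, and cwo, Pdp1 and cyc were not. The repressor tim had 10.18, 10.16, 10.06, 10.69 and 10.76 in elav/v105975, 10.55, 10.49, 10.53, 10.81 and 10.85 in v105975/+, and 9.68, 9.01, 9.03, 8.96 and 10.64 in elav/+ (log2, arrays 1 to 5). In elav/+ array 5 was the highest and lay among the arrays of the other genotypes, array 1 came next, and arrays 2, 3 and 4 lay close together below them. The range was 3.21-fold within elav/+, against 1.63-fold within elav/v105975 and 1.29-fold within v105975/+.

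The partner of tim, per, measured 8.23, 8.23, 8.20, 8.39 and 8.42 in elav/v105975, 8.54, 8.51, 8.53, 8.56 and 8.66 in v105975/+, and 7.99, 7.43, 7.52, 7.33 and 8.67 in elav/+ (log2, arrays 1 to 5). It had r = 0.96 with tim over 15 arrays and 0.995 within elav/+. The transcription factor vri had r = 0.899 with tim over 15 arrays, but -0.274 within v105975/+, where vri ranged over only 10.38 to 10.51. Outside the members, Pdp1 (rank 1599) had r = 0.955 with tim.

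Clk, the activator, ran the other way. Its log2 values were 8.49, 8.43, 8.38, 7.80 and 7.77 in elav/v105975, 8.35, 8.17, 8.12, 7.46 and 7.42 in v105975/+, and 8.78, 9.18, 9.005, 9.16 and 8.11 in elav/+ (log2, arrays 1 to 5). Arrays 4 and 5 of both hairpin genotypes and array 5 of elav/+ were the low ones. The photoreceptor protein gene cry measured 8.37, 8.43, 8.31, 7.93 and 7.82 in elav/v105975, 8.42, 8.35, 8.33, 7.95 and 7.90 in v105975/+, and 8.34, 8.29, 8.38, 8.38 and 7.89 in elav/+ (log2, arrays 1 to 5). Its low arrays were the same 5, and they did not overlap with the other 10. The r was 0.946 between Clk and cry, -0.864 between tim and Clk and -0.766 between tim and cry, and within single genotypes the r between tim and Clk lay between -0.988 and -0.957.

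The clock count depended on array 5 of elav/+: chosen without it, the 200 held 3 of the 8 genes. cyc, the partner of Clk, was among the steadiest eligible genes (SD 0.0368, rank 4812), and cwo, a further repressor, ranked 588. Cluster 3 also held Cpr72Ec, annotated as a cuticle protein, and the neighbouring Ugt35B1 and Ugt35A1, which encode UDP-glycosyltransferases. Cpr72Ec had 10.15, 9.95, 10.07, 9.15 and 8.87 in elav/v105975, 9.80, 9.81, 9.74, 9.33 and 8.98 in v105975/+, and 10.49, 10.69, 10.63, 10.66 and 10.02 in elav/+ (log2, arrays 1 to 5). It was low where Clk was low (r = 0.894) and high where fit was low (r = -0.957).

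**Figure D5:**
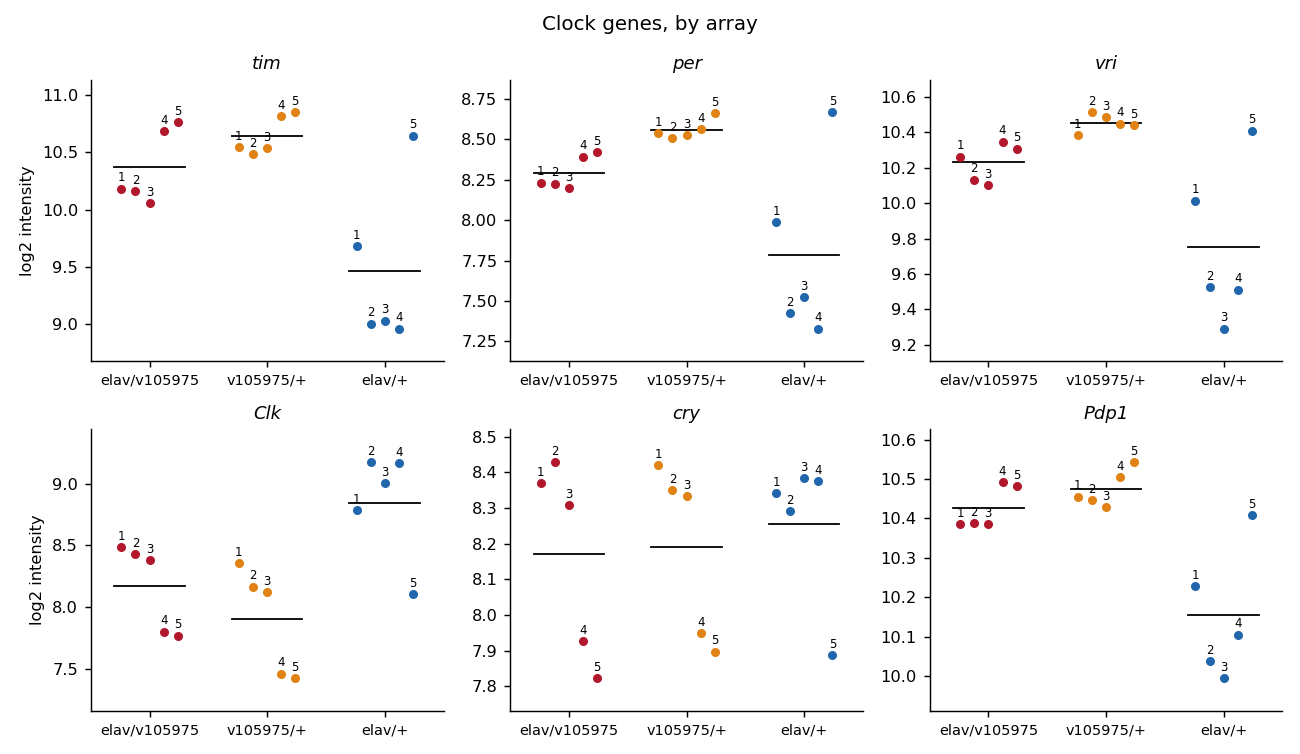
Log2 intensity of 6 clock genes in each array, by genotype, with the array number above each point and a bar at the genotype mean. Array 5 of elav/+ lies high for tim, per, vri and Pdp1 and low for Clk and cry, and arrays 4 and 5 of both hairpin genotypes are low for Clk and cry.

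Clusters 5 to 8 were smaller. Cluster 7 (6 members) held Sidpn, a transcription factor of the Hairy family, Pepck1, an enzyme of gluconeogenesis, Srr, CG16758, CG5707 and Hr38, a nuclear receptor induced by neuronal activity. Sidpn had 8.40, 8.38, 8.51, 7.55 and 7.40 in elav/v105975, 8.63, 8.59, 8.47, 7.46 and 7.70 in v105975/+, and 8.02, 7.46, 7.55, 7.35 and 7.60 in elav/+ (log2, arrays 1 to 5). All 6 genes were low in arrays 4 and 5 of both hairpin genotypes, and in elav/+ the members of the cluster had a median pairwise r of -0.17, so they did not move together there. Of 7 eligible activity-induced genes, Hr38 alone was a member.

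Cluster 8 (6 members) held inaF-D and inaF-C, neighbouring genes of a locus named for a gene that the photoreceptor channel TRP needs, with CG43255, mir-4964, mir-281-2 and the chloride channel gene pHCl-1. inaF-D measured 9.55, 9.45, 9.48, 8.97 and 8.67 in elav/v105975, 9.57, 9.53, 9.57, 9.06 and 8.93 in v105975/+, and 9.52, 9.35, 9.09, 8.99 and 8.79 in elav/+ (log2, arrays 1 to 5). Arrays 4 and 5 were the lowest in both hairpin genotypes, and elav/+ had its lowest value in array 5 as well. Its r with inaF-C was 0.951. Of 18 eligible phototransduction genes these were the 2 members, and the median SD of the list was 0.0598, below the 0.0881 of all eligible probesets.

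Clusters 5 and 6 were largely noncoding. Cluster 5 held 7 small nucleolar and Cajal body RNAs, which guide the chemical modification of other RNAs, with CG32523, and cluster 6 held 3 snoRNAs, 2 ribosomal RNA pseudogenes and the mitochondrial genes ND4L and ND6. Small noncoding RNAs of this kind made up 15 members of 140 eligible (10.7%). snoRNA:Me28S-G2017 of cluster 6 had 7.36, 7.10, 7.42, 6.45 and 7.51 in elav/v105975, 7.19, 7.21, 7.61, 6.70 and 6.69 in v105975/+, and 6.58, 8.08, 7.26, 6.56 and 6.62 in elav/+ (log2, arrays 1 to 5). Array 2 of elav/+ was the highest, the array that was lowest for Vajk3 in that genotype. No cytosolic ribosomal protein gene (of 31 eligible), heat shock gene (of 8), neuropeptide gene (of 16) or gene of lipid synthesis and storage (of 13) was a member. Members were 4.1% of all eligible probesets, so lists of this size would hold few or none at that share. In the same order the median SDs of these lists were 0.0756, 0.103, 0.103 and 0.125, against 0.0881 over the eligible probesets.

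Some members lay side by side on the chromosome. Of 194 members with a place in the annotation, 38 had another member within 3 gene places, in 16 groups. The r within such a group was not always high: it was 0.887 between Cpr62Bb and Cpr62Bc and 0.865 between Ugt35B1 and Ugt35A1, but -0.0122 between Ance-4 and PPO2.

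The genotypes were compared gene by gene with limma over all 16322 probesets, at a Benjamini-Hochberg adjusted p of at most 0.05. The residual SD that chose the members stands in the denominator of that test, and the median standard error of a difference was 0.152 for members, against 0.0600 for eligible probesets. In elav/v105975, 7 members were higher and 35 lower than in elav/+, 21.0% of the 200, against 9.43% of all probesets and 16.2% of eligible ones. In that comparison 3.5% of the members were higher and 17.5% lower, against 8.46% and 7.75% of the eligible probesets. In v105975/+, 6 were higher and 29 lower than in elav/+ (17.5%, against 6.1% of all probesets and 9.8% of eligible ones, of which 4.36% were higher and 5.43% lower). Between elav/v105975 and v105975/+ 1 member differed (0.5%, against 0.417% and 0.492%). Both comparisons with elav/+ share its 5 arrays and are not independent of each other.

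Cluster 2, the one led by Mtk, held 23 of the 35 members that were lower in elav/v105975 than in elav/+ and 14 of the 29 that were lower in v105975/+. In elav/v105975, 23 of the 62 members of cluster 2 were lower than in elav/+ and none was higher, with a median log2 difference of -0.42. The members of a cluster were grouped because their residuals moved together, so their calls are not independent of each other. The 23 became 17 without array 1, 2 or 3 of elav/v105975 or array 3, 4 or 5 of elav/+, and 30 without array 5 of elav/v105975. In v105975/+, 14 were lower and none was higher (median -0.30). The 14 became 8 without array 1 of v105975/+ or array 5 of elav/+, and 9 without array 3 of elav/+. None of the 11 members grouped with fit at a cut of 0.8 was called in either comparison with elav/+. Cluster 1 had 5 higher and 4 lower among its 64 members in elav/v105975, where 8.46% and 7.75% of the eligible probesets were called. In v105975/+ it had 1 higher and 3 lower, against 4.36% and 5.43%. These counts were near or below the eligible shares, and members, with their larger standard errors, are called less easily. Its higher members in elav/v105975 numbered 1 without array 4 of that genotype or array 4 of elav/+, 2 without array 1 or 5 of elav/v105975 or array 2 or 3 of elav/+, and 3 without array 2 of elav/v105975. Cpr11B was called higher in each of these fits, while tn, an E3 ubiquitin ligase of muscle, and Ilp5 were called in none of them. Without array 1 of elav/+ the higher members of the cluster in elav/v105975 numbered 7. In v105975/+ no member of cluster 1 was higher without array 4 or 5 of that genotype or any 1 of arrays 2 to 5 of elav/+, 2 were higher without array 1 of elav/+, and 5 were lower without array 5 of elav/v105975. With each array left out in turn, 29 of the 42 members called in elav/v105975 passed every time, as did 22 of the 35 in v105975/+.

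Sting was lower in both hairpin genotypes beyond its spread. It had 6.72, 6.28, 6.20, 7.09 and 6.91 in elav/v105975, 6.29, 6.61, 6.47, 7.09 and 7.21 in v105975/+, and 8.48, 8.43, 8.11, 8.15 and 8.52 in elav/+ (log2, arrays 1 to 5). Every elav/+ array lay above every other array. The difference from elav/+ was -1.70 ± 0.195 in elav/v105975 (adjusted p = 7.29e-05, limma) and -1.60 ± 0.195 in v105975/+ (adjusted p = 0.000164), on the log2 scale with standard errors. Vago, given above, differed by -1.41 ± 0.229 (adjusted p = 0.00126) and -1.46 ± 0.229 (adjusted p = 0.0014) in the same comparisons.

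The clotting protein gene fon (fondue) measured 7.61, 7.06, 7.76, 7.78 and 7.87 in elav/v105975, 8.03, 8.59, 8.64, 8.38 and 8.57 in v105975/+, and 9.65, 9.64, 9.72, 9.30 and 9.35 in elav/+ (log2, arrays 1 to 5). The 3 genotypes did not overlap, with elav/v105975 lowest and elav/+ highest. Against elav/+ the log2 difference was -1.92 ± 0.152 in elav/v105975 (adjusted p = 2e-06, limma) and -1.09 ± 0.152 in v105975/+ (adjusted p = 0.000554). It was also the one member that differed between elav/v105975 and v105975/+, by -0.82 ± 0.152 (adjusted p = 0.0212), a call that was lost without array 1 of elav/v105975 or without array 2, 3 or 5 of v105975/+ (adjusted p of 0.0592 to 0.074), and also with replicate numbers as a block (0.0738) or with these 2 genotypes fitted alone (0.0861).

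BomS5 was lower in elav/v105975 than in elav/+ by 1.26 on the log2 scale (limma, adjusted p = 0.000354). Of the 10 eligible antimicrobial genes, 7 were lower in elav/v105975 than in elav/+, where 7.75% of the eligible probesets were lower. The 7 became 5 without array 1, 2 or 3 of elav/v105975 or without array 1, 3, 4 or 5 of elav/+. In v105975/+ 2 were lower, where 5.43% of the eligible probesets were (4 with replicate numbers as a block, and 3 without array 2 of elav/v105975). For Mtk the wide spread told. It differed between elav/v105975 and elav/+ by -2.02 ± 0.568 (adjusted p = 0.0364, limma), a call lost without array 1, 2 or 3 of elav/v105975 or any 1 of the 5 elav/+ arrays (adjusted p of 0.0507 to 0.0846). CG32523, picked after its values were seen, had the largest increase among the members in elav/v105975 and came after tim in v105975/+, at 8.69, 8.65, 8.65, 8.58 and 8.63 in elav/v105975, 8.37, 8.50, 8.51, 8.29 and 8.49 in v105975/+, and 6.72, 7.36, 7.19, 7.56 and 7.69 in elav/+ (log2, arrays 1 to 5). Here the 5 elav/+ arrays lay below all others, and the difference was 1.34 ± 0.133 in elav/v105975 (adjusted p = 2e-05, limma) and 1.13 ± 0.133 in v105975/+ (adjusted p = 0.000116).

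Among the 8 clock genes, 2 were higher and 1 lower in elav/v105975 than in elav/+, and 5 were higher and 1 lower in v105975/+. Among eligible probesets 8.46% were higher and 7.75% lower in the first comparison, and 4.36% and 5.43% in the second. In elav/v105975 none of the 8 passed without array 4 of that genotype or without array 2, 3 or 4 of elav/+, and without array 5 of elav/+ 5 were higher and 1 lower. In v105975/+ the 5 higher became 3 without array 1 or 5 of that genotype or without array 2, 3 or 4 of elav/+, and the 1 lower became 0 without array 4 or 5 of that genotype or without array 2, 3 or 4 of elav/+. tim differed by 0.90 ± 0.268 in elav/v105975 (adjusted p = 0.0457, limma) and by 1.18 ± 0.268 in v105975/+ (adjusted p = 0.0164). The first call was lost on leaving out any 1 of the 15 arrays except array 5 of elav/+ (adjusted p of 0.0523 to 0.112), and the second was kept in each of the 15 fits. In the same fits vri and Pdp1 stayed higher in v105975/+ throughout, whereas the calls of per and Clk there were lost without array 2, 3 or 4 of elav/+ or array 4 or 5 of v105975/+, and that of per also without array 1 of v105975/+ (adjusted p of 0.0505 to 0.0738). The call of cwo there was lost on leaving out any 1 of 13 arrays (adjusted p of 0.0538 to 0.115), and in elav/v105975 those of cyc and Pdp1 were lost on leaving out any 1 of 10 arrays (0.0503 to 0.0949) and of 4 arrays (0.0515 to 0.0562). None of the 3 Vajk genes passed the threshold in any comparison. Vajk3 differed between single arrays of one genotype by up to 13.5-fold, and its difference of 0.753 in elav/v105975 from elav/+ had a standard error of 0.697. With that spread, the lack of a call does not show that the genotypes were alike.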

How the data were processed

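Whole-head RNA was hybridized to Affymetrix Drosophila Gene 1.0 ST arrays. Each deposited value is a log2 intensity of 1 probeset, computed by the authors with RMA, a method that subtracts background, gives all arrays the same quantiles and combines the probes of a probeset (oligo 1.44.0 according to the submitters' processing notes). A shift of nearly all transcripts at once is therefore hidden. No genome build is named in the sources used here, so no coordinates are printed. Precision is limited by having 5 arrays per genotype.

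Of the probesets, 13441 carried 1 symbol in the platform annotation, 555 several and 2326 none, and 13064 of the first kind were matched to a RefSeq gene by gene ID. Among members 6 had no match and kept the platform's name. Residual SDs, correlations and average-linkage trees were computed in Python 3.11.15 with pandas 2.3.3 and scipy 1.17.1. Genotypes were compared with limma 3.58.1 in R 4.3.3 (lmFit and eBayes over all probesets and all 3 genotypes, Benjamini-Hochberg adjustment), which was tested on simulated arrays first. Of 31 gene lists, 19 held at least 1 member, and 66 members were in a list.

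The members, lists and tests were chosen with earlier results of these data known, and 3 lists (proteasome, other chitin proteins, Vajk) were added after the values were seen. Genes were named by rank of residual SD among all members, in each cluster and in each list, with those most like the first 4 and those at the edge of the set. Lsp2, CG32523, Ance-4 and serp and other genes given only as neighbours, list members or markers were picked outside that rule. Samples with the same number were not paired by any label, and their residuals correlated between -0.076 and 0.176 over all probesets and between -0.472 and 0.78 over the members. Alternatives changed the measure of spread, the level minimum, the normalization, the tree and the limma settings, and left out genotypes and single arrays. No sequences were used here.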

Additional observations from a re-analysis of the deposited data

Results flagged for a closer look

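In 5 of the 195 sets of 5 arrays examined (the genes given with values and the means of the 8 clusters, in each genotype), the highest or lowest array lay apart from the other 4 by more than Dixon's limit for 5 values. That is 2.56%, where chance gives about 1 in 20. 2 of these sets had their odd value in array 5 of elav/+, where cry was 7.89, against 8.29 to 8.38 in the other elav/+ arrays, and Cpr72Ec was 10.02, against 10.49 to 10.69. In array 1 of elav/+, Gasp was 10.57, against 9.79 to 9.96. In array 1 of elav/v105975, snoRNA:Me28S-C788a was 8.14, against 7.04 to 7.27. In array 1 of v105975/+, cyc, whose residual SD was 0.0368, was 9.34, against 9.26 to 9.28.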

How the results depend on the processing

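Which genes made up the 200 depended most on the level minimum: 117 of the 200 chosen with a minimum of 6 and 95 of those chosen with a minimum of 8 were members. Across the other settings 135 (first component of all residuals removed) to 192 were shared. The cuticle count of 8 was 3 with a level minimum of 8 and 5 with the first component removed. The clock count of 5 was 3 with the median absolute residual as the measure, 3 without the elav/+ arrays and 3 to 5 with single arrays left out. The female fat body count of 3 was 1 without the elav/v105975 arrays and 1 to 3 with single arrays left out. Cut at a correlation of 0.8, the tree placed 109 members in clusters of at least 5, against 174. The cause of these shifts was not tested. With replicate numbers as a block (replicate block), 147 members were shared and 58, 47 and 2 members were called for elav/v105975 against elav/+, v105975/+ against elav/+ and elav/v105975 against v105975/+, where the fit without it called 42, 35 and 1. The 2 did not include fon, the 1 member called without it. Of the 42 and 35, 42 and 34 were called with it. Of 30 tries to match an array by its number in another genotype, 4 found the array of its own number. The single call between elav/v105975 and v105975/+ also became 2 with array weights and 0 to 2 with single arrays left out. In the fit of all arrays 19 of the 200 members had an unadjusted p under 0.05 in that comparison (limma). The share of eligible probesets at that limit is not given here, so no difference is read from the 19. The other counts of members called stayed within 1.5 times, at 30 to 58 and 24 to 47. With 2 genotypes fitted alone, each hairpin genotype against elav/+, the clock calls were 0 for elav/v105975 and 2 higher for v105975/+. For genes named here that were followed singly, each difference that passed the threshold was tried under 24 alternative settings. These differences were no longer past it in 160 combinations of gene, comparison and setting, and none of them changed its sign. Array values carry no read depth, and 5 arrays per genotype limit what can be told apart.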
